A study of Drosophila melanogaster with 4 samples.

Results

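The genes described here are 10 genes of messenger RNA localisation in the Drosophila oocyte, by their products or, for bcd, as a localised mRNA: bcd, swa, exu, stau, egl, BicD, Hrb27C, sqd, tsu and mago. They were chosen by name, as genes for the transport of bicoid and oskar mRNA, with earlier results of these data known. All 10 were found among the 17447 genes or joint loci of the count tables, and all 10 passed the filter on low counts that left 7789 genes for testing. Ribosome footprints were sequenced, the stretches of mRNA that ribosomes cover and nuclease leaves intact, and their number per gene depends both on the amount of mRNA and on its ribosome load. The libraries came from hand-dissected ovaries of wildtype flies (2 libraries) and of RpS5b mutant flies (2 libraries), dissected 48 h after the adults emerged and kept at 25 °C. The labels name no allele of RpS5b, which encodes a small-subunit ribosomal protein, and no genetic background for either group. Only the wildtype ovaries had egg chambers of stages 10 to 14 taken out, per the labels. RNA-seq libraries were not used here, so mRNA level and translation cannot be told apart.

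A fly egg receives its body axes from mRNAs that the nurse cells make and the oocyte stores. In outline, bicoid mRNA is carried to the anterior pole of the oocyte and oskar mRNA to the posterior pole, both are kept largely silent on the way, and bicoid is translated only after the egg is laid. Proteins that bind these mRNAs, adaptors that couple them to the dynein motor, and the exon junction complex that splicing leaves on oskar mRNA all take part.

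Footprints on the anterior genes and on stau were scarcer in the mutant, those on the exon junction genes and on sqd were more abundant, and those on the dynein adaptors and on Hrb27C did not pass the test. In edgeR's quasi-likelihood test, at a Benjamini-Hochberg adjusted p under 0.05 over all genes, 4 of the 10 genes fell (swa, stau, bcd, exu), 3 rose (mago, sqd, tsu) and 3 did not pass (egl, BicD, Hrb27C). Over all genes tested, 20.9% were called lower, 20.5% higher and 41.4% in either direction. Among the genes called and changed at least 2-fold, 1 of the 10 was higher (mago) and 3 lower (swa, stau, bcd), against 8.2% and 11.2% of all genes. In CPM, the count scaled to a common library size, both mutant libraries lay above both wildtype libraries for 4 genes and below them for 5, against 37.6% and 34.3% of all genes. The median log2 fold change, mutant over wildtype, was -0.201 for the 10 genes and 0.032 for all genes tested. The value for the 10 genes was -0.078 without wildtype replicate 1, -0.346 without wildtype replicate 2, -0.367 without mutant replicate 1, -0.071 without mutant replicate 2 and, over the 9 genes still tested, -0.116 with the stricter filter and -0.051 after thinning. The 10 genes thus moved apart from each other: their middle values ran from -1.13 to 0.59 between the quartiles, against -0.49 to 0.53 for all genes. Leaving out replicate 1 of either group took the genes called lower from 4 to 2, as the calls of bcd and exu were then lost.

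**Figure D1:**
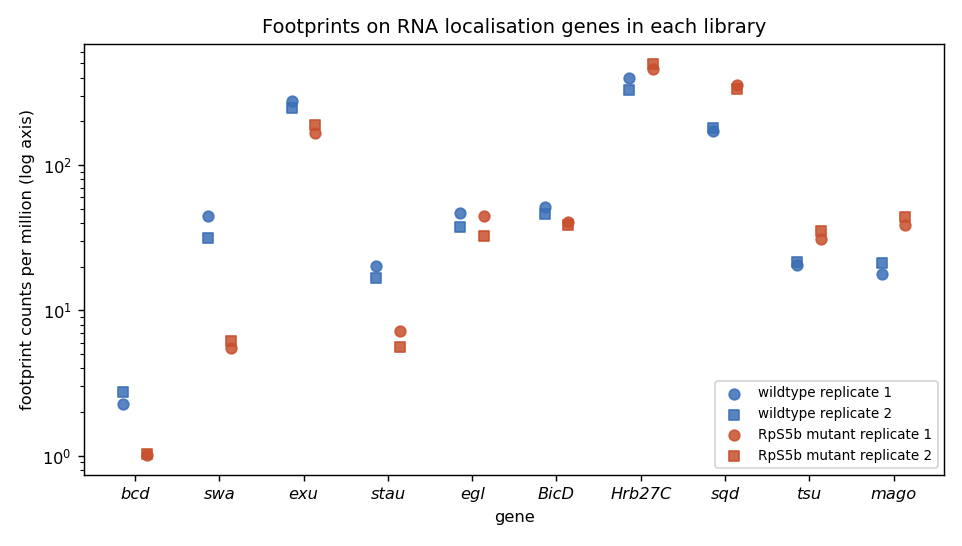
Footprint CPM (vertical log axis) for each of the 10 genes in the 4 libraries; blue points are wildtype and orange points RpS5b mutant libraries, circles replicate 1 and squares replicate 2. The mutant points of swa, at 5.52 and 6.20, lie well below the wildtype points at 44.3 and 31.6, and egl is the gene whose groups overlap.

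The targeted gene and the make-up of the tissue were checked first. RpS5b had 287 and 342 counts for wildtype against 10 and 9 for mutant libraries, in keeping with the labels. Libraries held between 3122299 and 13942184 reads by their file headers, the mutant libraries being the deeper ones, and log2 CPM correlated at 0.976 within the wildtype pair, 0.986 within the mutant pair and between 0.896 and 0.913 across groups, over genes. Of 6 germline markers, 1 was called higher and 2 lower, and vas, encoding a germline helicase, had 115 and 111 CPM against 107 and 120. Their summed CPM was 436 and 401 for wildtype against 375 and 420 for mutant libraries; 3 of the 6, nos, osk and orb, are also localised mRNAs of the lists below. Of 9 chorion genes, made by follicle cells of late egg chambers, all 9 were lower, with a summed CPM of 7100 and 4800 for wildtype against 1600 and 1120 for mutant libraries. The wildtype was thus the higher group, although per the labels stages 10 to 14 were taken out of the wildtype ovaries only. Stage removal and genotype cannot be told apart in this design. Of 7 other follicle cell markers, all 7 were higher, with sums of 1320 and 802 against 4480 and 3850. These sums rest mostly on yolk protein genes. Yp1 had 425 and 250 against 1950 and 1720 CPM, and Yp2 had 414 and 244 against 1630 and 1390 CPM. Among the others, tj had 78.3 and 71.8 against 159 and 163 CPM. Of 11 muscle sheath genes tested 2 were higher and 9 did not pass, their sums being 421 and 300 against 361 and 314. Markers of fat body, hemocytes, gut, and nerve and trachea had 1, 3, 1 and 1 members tested, of which apolpp rose. Fbp1, Fbp2, Lsp1alpha, Lsp1gamma, He, brp and 5 of 6 gut genes were at 0 in all 4 libraries. The part that these shifts in tissue make-up have in the results below was not tested, and in bulk ovary tissue fewer cells of a type and less RNA per cell cannot be told apart.

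The protein of swa (swallow) is needed to keep bicoid mRNA at the anterior of the oocyte late in oogenesis. The gene had 137 and 171 footprint counts for wildtype against 71 and 54 for mutant libraries, or 44.3 and 31.6 CPM against 5.52 and 6.20 CPM. Both mutant libraries lay far below both wildtype libraries, although the mutant libraries were the deeper ones. The mean fell from 37.9 ± 9.05 to 5.86 ± 0.478 CPM (SD, n = 2 each), 6.47 times less, at a log2 fold change of -2.68 (SE 0.20 and adjusted p = 0.000119, edgeR). Only 1.46% of the genes tested had a lower fold change. The transcript counted lies on chromosome X at 6363418 to 6365708 on the minus strand of build BDGP6, has 3 exons and 2022 nt, and is the gene's single transcript in the tables. The fall held in all 13 alternative treatments of the data, between -2.94 and -2.44. Beside this fall, the median log2 fold change of the 9 chorion genes was -2.01, and their part in it was not tested.

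The protein of stau (Staufen) binds double-stranded RNA and accompanies both oskar mRNA to the posterior and bicoid mRNA at the anterior. It had 62 and 91 counts for wildtype against 93 and 49 for mutant libraries, or 20.1 and 16.8 CPM against 7.23 and 5.62 CPM. The groups did not overlap, and the wildtype values were higher. The mean was 18.4 ± 2.32 in the wildtype and 6.43 ± 1.14 CPM in the mutant (SD, n = 2 each), at a log2 fold change of -1.48 (SE 0.20 and adjusted p = 0.00128, edgeR), and the call held in all 13 alternatives. The counted transcript spans 18117896 to 18125779 on the minus strand of chromosome 2R, with 6 exons. Its 2 other transcripts gave log2 ratios of mean CPM of -1.52 and -1.51, close to the -1.52 of the counted one.

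The gene bcd encodes Bicoid, the anterior morphogen of the embryo, and its mRNA is the cargo of the anterior route. It was sparsely covered in every library, with 7 and 15 counts for wildtype against 13 and 9 for mutant libraries. In CPM this was 2.27 and 2.77 against 1.01 and 1.03, so the groups did not overlap and the mutant values were lower. The log2 fold change was -1.32 (SE 0.37, 95% interval -2.19 to -0.45, edgeR adjusted p = 0.0261). Each group holds 22 counts in all, and an exact Poisson interval at 95%, which covers counting error only, gives 1.62 to 3.91 CPM for the wildtype and 0.639 to 1.54 CPM for the mutant. The call rested on the fit and on all 4 libraries: the adjusted p was 0.15 with the DESeq2 Wald test and between 0.0658 and 0.22 with any 1 library left out, while the fold change stayed between -1.43 and -1.15 over the alternatives. The transcript lies on the minus strand of chromosome 3R at 6755842 to 6759466, with 4 exons and 2536 nt. A shorter transcript of 1479 nt lacks 1057 nt between 6757473 and 6758569, and of the 7, 15, 13 and 9 counts in wildtype replicates 1 and 2 and mutant replicates 1 and 2, 5, 12, 12 and 6 fell in this missing stretch. The few footprints on bcd thus lay mostly in exon sequence that the short transcript does not have.

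The protein of exu (Exuperantia) binds bicoid mRNA in the nurse cells and is needed for its transport into the oocyte. It had 849 and 1335 counts for wildtype against 2116 and 1638 for mutant libraries, or 275 and 246 against 165 and 188 CPM. Every wildtype value was higher than every mutant value. The mean was 261 ± 20.1 against 176 ± 16.6 CPM (SD, n = 2 each), at a log2 fold change of -0.56 (SE 0.16 and adjusted p = 0.0269, edgeR). This was a small change, 1.48 times less, and its call was lost without wildtype replicate 1 (adjusted p = 0.121), without mutant replicate 1 (adjusted p = 0.146) and with scaling by total counts (adjusted p = 0.143). The counted transcript has 3 exons and spans 20668352 to 20670491 on the minus strand of chromosome 2R. All 4 transcripts of exu gave the same log2 ratio of mean CPM, -0.56.

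Within each library, the anterior genes also shifted against each other. The ratio of swa to exu in CPM per kilobase of transcript was 0.159 and 0.126 for wildtype against 0.033 and 0.0324 for mutant libraries. For stau over exu the ratio was 0.0277 and 0.0259 against 0.0167 and 0.0113. In both cases the ratios of the groups did not overlap, and swa lost more footprints relative to exu than stau did, with differences in log2 fold change of -2.11 and -0.92.

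**Figure D2:**
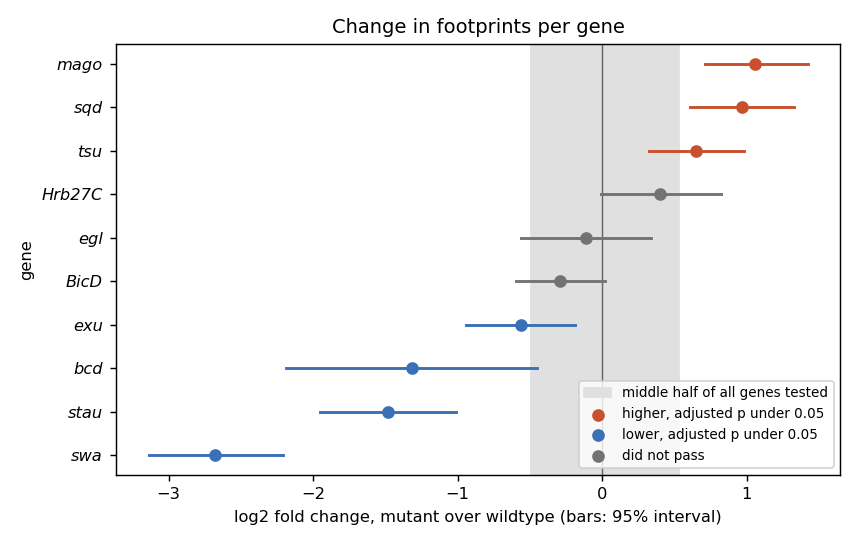
Log2 fold change of each gene, mutant over wildtype (horizontal axis), with its 95% interval as a bar; orange marks genes called higher, blue genes called lower and grey genes that did not pass, and the shaded band spans the quartiles of all genes tested, -0.49 to 0.53. The genes run from swa at -2.68 to mago at 1.06, and the interval of bcd is the widest.

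The adaptors of the dynein motor, egl and BicD, gave no call. Egalitarian, the protein of egl, binds localised mRNAs, and Bicaudal-D links it to dynein, so that the pair carries mRNAs from nurse cells into the oocyte. The egl gene had 145 and 202 counts for wildtype against 575 and 283 for mutant libraries, or 46.9 and 37.3 against 44.7 and 32.5 CPM. These groups overlapped, the only ones of the 10 genes to do so, where groups lay apart for 71.9% of all genes tested. The log2 fold change was -0.11 (95% interval -0.56 to 0.34, edgeR adjusted p = 0.687), and its sign turned without wildtype replicate 1 (0.05) or without mutant replicate 2 (0.11). The interval leaves room for a change of either sign. The gene lies on the minus strand of chromosome 2R, the counted transcript spanning 23734904 to 23746829 with 8 exons.

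For BicD there were 160 and 248 counts for wildtype against 522 and 337 for mutant libraries, which gave 51.8 and 45.8 against 40.6 and 38.7 CPM. The wildtype values were slightly higher and the groups did not overlap. The log2 fold change was -0.29 (95% interval -0.60 to 0.02, edgeR adjusted p = 0.116), which did not pass. The counted transcript lies on the minus strand of chromosome 2L at 17459605 to 17473215, with 8 exons. Per kilobase, egl stood to BicD as 1.10 and 0.986 for wildtype against 1.33 and 1.02 for mutant libraries, ranges that overlapped.

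The genes Hrb27C and sqd encode hnRNP proteins, abundant RNA-binding proteins that coat nuclear transcripts. Hrp48, the product of Hrb27C, binds oskar and gurken mRNA and takes part in their localisation and in silencing oskar, and Squid, the product of sqd, is needed to bring gurken mRNA to the dorsal anterior corner of the oocyte. For sqd there were 532 and 976 counts for wildtype against 4602 and 2911 for mutant libraries, or 172 and 180 against 358 and 334 CPM. Both mutant libraries were about the same and clearly above both wildtype libraries. The mean rose from 176 ± 5.58 to 346 ± 16.8 CPM (SD, n = 2 each), 1.96 times, at a log2 fold change of 0.97 (SE 0.15 and adjusted p = 0.00245, edgeR), and it held in all 13 alternatives. The 5 transcripts of sqd gave log2 ratios of mean CPM between 0.97 and 1, the counted one spanning 13637718 to 13646033 on the minus strand of chromosome 3R.

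The counts of Hrb27C were the highest of the 10 genes, 1222 and 1774 for wildtype against 5872 and 4351 for mutant libraries. In CPM this was 396 and 327 against 457 and 499, with both mutant values above both wildtype values. The log2 fold change of 0.40 (95% interval -0.01 to 0.82, edgeR adjusted p = 0.106) did not pass, but it did with protein-coding genes alone in the table (adjusted p = 0.0362). The counted transcript lies on the plus strand of chromosome 2L at 6920704 to 6932057. Per kilobase, sqd stood to Hrb27C as 0.646 and 0.817 for wildtype against 1.16 and 0.993 for mutant libraries, so the ratio was higher in both mutant libraries.

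The exon junction complex is a set of proteins that splicing deposits on mRNA, and in the fly oocyte it is needed to bring oskar mRNA to the posterior pole. Its core includes the heterodimer of Mago nashi (mago) and Tsunagi, also called Y14 (tsu). The mago gene had 55 and 115 counts for wildtype against 500 and 381 for mutant libraries, or 17.8 and 21.2 against 38.9 and 43.7 CPM. Both mutant values were well above the wildtype values. The mean rose from 19.5 ± 2.42 to 41.3 ± 3.42 CPM (SD, n = 2 each), 2.12 times, at a log2 fold change of 1.06 (SE 0.15 and adjusted p = 0.00152, edgeR). This was the largest rise among the 10 genes, and 91.7% of all genes tested had a lower fold change. The call held in all 13 alternatives, between 0.96 and 1.20.

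For its partner tsu there were 63 and 117 counts for wildtype against 397 and 308 for mutant libraries, or 20.4 and 21.6 against 30.9 and 35.4 CPM. Again the groups were apart, with the mutant values higher. The mean rose from 21.0 ± 0.846 to 33.1 ± 3.16 CPM (SD, n = 2 each), at a log2 fold change of 0.65 (SE 0.14 and adjusted p = 0.00906, edgeR). The call held in 12 of 13 alternatives and was lost with the DESeq2 Wald test (adjusted p = 0.0847). The ratio of tsu to mago per kilobase of whole transcript was 1.83 and 1.62 for wildtype against 1.27 and 1.29 for mutant libraries. In counts not divided by length, mago had 55 and 115 beside the 63 and 117 of tsu for wildtype libraries. For mutant libraries mago had 500 and 381 beside 397 and 308. The ratio thus fell, but which partners stand closer to equal numbers depends on the length used.

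Both genes share exon sequence with a gene on the opposite strand. The transcript of mago, on the plus strand of chromosome 2R at 21128577 to 21129737, shares 275 of its 1103 nt with Magi, whose most covered transcript had 20, 35, 63 and 46 counts in wildtype replicates 1 and 2 and mutant replicates 1 and 2. The transcript of tsu, on the same strand and chromosome at 9110799 to 9111578, shares 74 of its 691 nt with Mys45A, which had 184, 312, 1266 and 828 counts. Whether the counting used the strand of the reads was not given in the sources used, so reads in the shared stretches cannot be told apart. For the other genes of the 10, the counted transcript shared no exon sequence with another annotated gene. Their remaining transcripts were not checked.

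**Figure D3:**
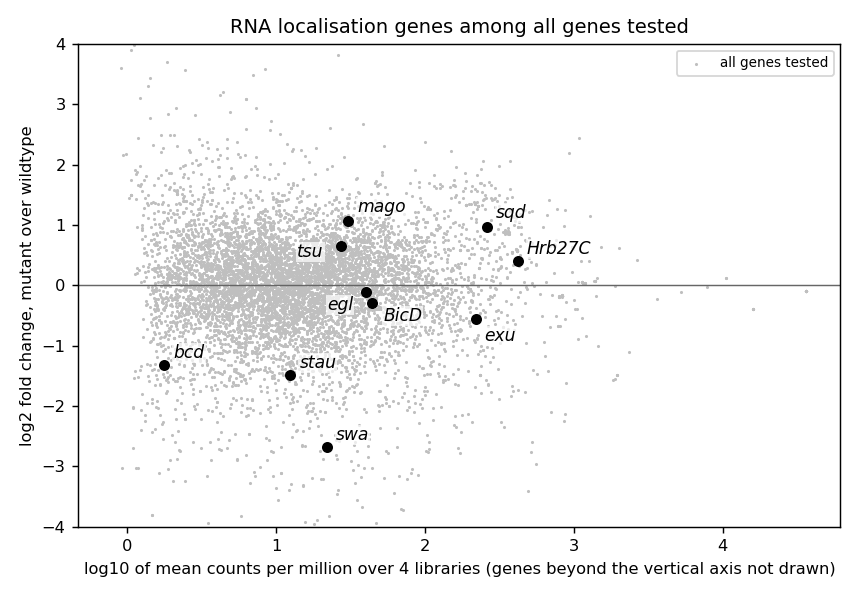
Log2 fold change, mutant over wildtype, against the log10 of the mean CPM over the 4 libraries; grey points are the 7789 genes tested and black points the 10 genes. The axis ends at 4 in both directions and 49 genes lie beyond it. The gene swa lies near the lower edge of the genes of its abundance, bcd is among the least abundant genes, and egl and BicD lie close to 0.

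Set in order of footprints per length in the wildtype, exu was the most densely covered, with 131 ± 10.1 CPM per kilobase (SD, n = 2). It was followed by Hrb27C with 43.9 ± 5.85, sqd with 31.7 ± 1, tsu with 30.4 ± 1.22, swa with 18.8 ± 4.47 and mago with 17.7 ± 2.19. The adaptors were lower, egl with 9.51 ± 1.54 and BicD with 9.10 ± 0.795, and stau with 3.52 ± 0.442 and bcd with 0.992 ± 0.14 came last. Neighbours whose libraries overlapped were sqd and tsu, swa and mago, and egl and BicD. In the mutant, exu with 88.7 ± 8.34 CPM per kilobase was still the highest and bcd with 0.403 ± 0.00611 the lowest. There sqd with 62.3 ± 3.03 stood above Hrb27C with 58.0 ± 3.66, though their libraries overlapped, and swa dropped from the fifth place to the eighth with 2.90 ± 0.236.

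These densities depend on which transcript stands for a gene, since long untranslated ends add length and few footprints. For Hrb27C the density in the wildtype was 43.9 on the counted transcript of 8240 nt and 168 CPM per kilobase on the shortest, of 2110 nt. The density of sqd in the wildtype ran from 31.7 to 81.2 over its transcripts and that of exu from 98.3 to 131. There exu thus lay above sqd for any transcript, while the place of Hrb27C is not settled by these tables. In the mutant exu ran from 66.6 to 88.7 and sqd from 62.3 to 162, so the order of all 3 genes is not settled. The changes between groups depend far less on it: over the 8 transcripts of Hrb27C the log2 ratio of mean CPM was between 0.40 and 0.41.

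Where all exons of one transcript lie within another of the same gene, the difference of their counts gives the footprints in the added sequence. The counted transcript of BicD contains another one and runs on for 1212 nt at its 3′ end, from 17459605 to 17460816. That extension held 0 of the 1267 counts of the gene in the 4 libraries, which allows a share of up to 0.237% (3 counts, counting error only). In stau, 1731 nt that set the longest transcript apart from one it contains, nearly all at the 3′ end, held 0 of 295 counts, which allows up to 1.02%. In Hrb27C, the 8240 nt transcript contains one of 2137 nt and adds 6103 nt, of which 6011 lie at the 3′ end and 92 inside. This added sequence held 26, 60, 125 and 117 of the 1222, 1774, 5872 and 4351 counts in wildtype replicates 1 and 2 and mutant replicates 1 and 2. The transcript of 2993 nt adds 856 nt to the same one of 2137 nt, 96 inside and 760 at the 3′ end. That shorter addition held 25, 58, 124 and 113 counts in the same order of libraries. How the counts divide between the inner and the 3′ part was not tested.

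Other pairs of transcripts share exons without one containing the other, and the difference of their counts is then a net value over both sets of exons. In sqd, the counted transcript of 5551 nt had 35, 103, 265 and 256 more counts than one of 1983 nt, in the same order of libraries. In egl, the transcript of 4428 nt had 5, 11, 42 and 21 more counts than one of 3885 nt. In Hrb27C, the transcript of 8240 nt had 1, 2, 1 and 4 more counts than one of 2993 nt. In none of these genes did the choice of transcript turn the direction of the change.

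By the distance of log2 CPM over the 4 libraries, the genes with values closest to those of swa were Cyp6a19 (distance 0.514, log2 fold change -2.56), CG4199 (0.539, -2.33) and Mur11Da (0.572, -2.80). Closest to stau were sol (0.20, -1.29), Cht2 (0.20, -1.63) and CG12702 (0.253, -1.44). With 4 libraries such closeness reflects a similar level and a similar change, and no more.

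Other genes of the same process were taken from 5 lists, with 64 genes, all tested. Of these, 9 rose (14.1%), 18 fell (28.1%) and 37 did not pass, with a median log2 fold change of -0.17, against 0.032 for all genes tested and calls for 20.5% and 20.9% of them. The number that rose was 5 without wildtype replicate 1, 3 without wildtype replicate 2, 5 without mutant replicate 1, 5 after thinning the libraries to equal totals and 3 with DESeq2.

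Among the genes of 9 other localised mRNAs, footprints fell on 6 (66.7%) and rose on 1 (11.1%), with a median of -0.48. Of all genes tested, 20.9% were called lower and 20.5% higher. For osk, whose product assembles the germ plasm at the posterior, footprints fell from 76.7 to 19.5 CPM. There were 80.9 and 72.5 CPM for wildtype against 15.9 and 23.1 CPM for mutant libraries. The log2 fold change of osk was -1.98 (SE 0.19 and adjusted p = 0.00033, edgeR). CycB, a mitotic cyclin whose mRNA gathers at the posterior, fell from 182 to 26.9 CPM, at a log2 fold change of -2.76 (SE 0.15). The falls of osk and CycB held in all 13 alternatives, whereas that of gcl, a germ cell gene, at -0.53, was lost without either wildtype library and without mutant replicate 1. With DESeq2 and with total-count scaling the call of gcl was lost too. The rise of fs(1)K10, a gene of gurken mRNA localisation, at 0.63 was lost without wildtype replicate 2, with DESeq2 and after thinning. Chosen after its value was seen, pgc, a germ cell gene, had 56 and 86 counts against 20 and 20, and fell from 17.0 to 1.93 CPM (log2 fold change -3.16, SE 0.26, edgeR adjusted p = 0.000165). Likewise, grk, the mRNA of the dorsal signal Gurken, had 11 and 6 counts against 54 and 35 and a log2 fold change of 1.01 (SE 0.45 and adjusted p = 0.113, edgeR), which did not pass. It was called at 1.88 without wildtype replicate 1 (edgeR adjusted p = 0.0288), stood at 0.19 without wildtype replicate 2 (edgeR adjusted p = 0.767), and was called with total-count scaling and with no filter. The mRNAs of bcd and osk both lost footprints, and the ratio of bcd to osk per kilobase was 0.0317 and 0.0432 for wildtype against 0.0717 and 0.0507 for mutant libraries.

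Of 13 genes of motors and their linkers, 10 did not pass, and the median was -0.31. The other 3 fell (23.1%, against 20.9% of all genes tested). Kinesin-1 is the motor that carries oskar mRNA to the posterior, and footprints fell on the genes of both its chains. Those on Khc, for the heavy chain, fell from 205 to 102 CPM (log2 fold change -1.01, SE 0.16, edgeR adjusted p = 0.00246). Those on Klc, for the light chain, fell from 86.1 to 45.6 CPM (-0.92, SE 0.13, edgeR adjusted p = 0.00137). Both calls held in all 13 alternatives. Tm1, of the same list and chosen after its value was seen, had 46.8 CPM in the wildtype and 61.5 CPM in the mutant. Its log2 fold change of 0.39 (edgeR adjusted p = 0.0517) did not pass. The dynein heavy chain gene Dhc64C, chosen after its value was seen, was at -0.31 (edgeR adjusted p = 0.176) and did not pass, as egl and BicD did not. The call of Lis-1, a dynein regulator, at -0.49, was lost with any 1 library left out, with DESeq2 and with total-count scaling.

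In the exon junction complex list of 6 genes, 4 did not pass, and the median was 0.04. There 1 rose and 1 fell (16.7% each), against 20.5% and 20.9% of all genes tested. The one that rose was eIF4A3, the RNA helicase that clamps the complex to mRNA, named CG7483 in the table, from 40.2 to 78.0 CPM, at a log2 fold change of 0.94 (SE 0.17 and adjusted p = 0.00375, edgeR). It stands beside mago at 1.06 and tsu at 0.65, so that 3 core genes rose. The fourth core gene, btz, chosen after its value was seen, had 61.2 against 59.7 CPM and a log2 fold change of -0.03 (edgeR adjusted p = 0.898). Pym, whose protein takes the complex apart through Mago and Y14, fell from 16.6 to 8.81 CPM, at a log2 fold change of -0.91 (SE 0.16 and adjusted p = 0.00366, edgeR). The calls of eIF4A3 and Pym held in all 13 alternatives.

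Of 16 genes for proteins of the oskar and gurken ribonucleoprotein particles, 4 rose, 4 fell and 8 did not pass, with a median of -0.17. The shares of 25% each stand beside 20.5% called higher and 20.9% called lower over all genes tested. Those that fell included cup, whose protein binds the cap-binding factor, from 632 to 326 CPM (log2 fold change -0.96, SE 0.18), tral from 1940 to 968 CPM (-1, SE 0.21) and BicC from 349 to 156 CPM (-1.16, SE 0.17). The names cup and BicC each share a locus with another annotated gene in the table, CG34310 and CG45084. The edgeR adjusted p was at most 0.00758 for these 3 genes, and that of tral was lost without mutant replicate 1 or mutant replicate 2. Those that rose included the hnRNP gene Hrb98DE at 0.68 (SE 0.15), and the helicase genes armi at 0.67 (SE 0.13) and spn-E at 0.49 (SE 0.15). The call of armi held in all alternatives. That of Hrb98DE was lost when replicate 1 of either group was left out. That of spn-E was lost without either wildtype library, without mutant replicate 2, with DESeq2, with total-count scaling and after thinning.

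Of 20 genes of mRNA anchoring and microtubule polarity, 3 rose, 4 fell and 13 did not pass, with a median of 0.15. The rises and falls were 15% and 20% of the list, beside 20.5% and 20.9% of all genes tested. The maternal gamma-tubulin ring nucleates microtubules and is needed for bicoid mRNA anchoring, and footprints on genes for its components fell, as those on swa did. The gene gammaTub37C fell from 120 to 32.1 CPM (log2 fold change -1.91, SE 0.16, edgeR adjusted p = 0.000185). Grip75 fell from 30.7 to 12.9 CPM (-1.27, SE 0.15, edgeR adjusted p = 0.000658). The actin nucleator gene spir fell from 25.8 to 10.6 CPM (-1.31, SE 0.15). These 3 falls held in all 13 alternatives. The ESCRT-II genes lsn, Vps25 and Vps36, whose proteins are also needed for bicoid localisation and which were chosen here after their values were seen, were at 0.14, 0.43 and 0.50 and did not pass (edgeR adjusted p between 0.208 and 0.732). The rises of baz, shot and chic, between 0.41 and 0.50, were each lost without wildtype replicate 2 or mutant replicate 1. Those of shot and chic were also lost without wildtype replicate 1, and that of shot without mutant replicate 2. All 3 rises were lost with DESeq2, and those of shot and chic also with RLE or total-count scaling and after thinning. The edgeR adjusted p of shot and chic, 0.0494 and 0.0497, lay just under the threshold.

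**Figure D4:**
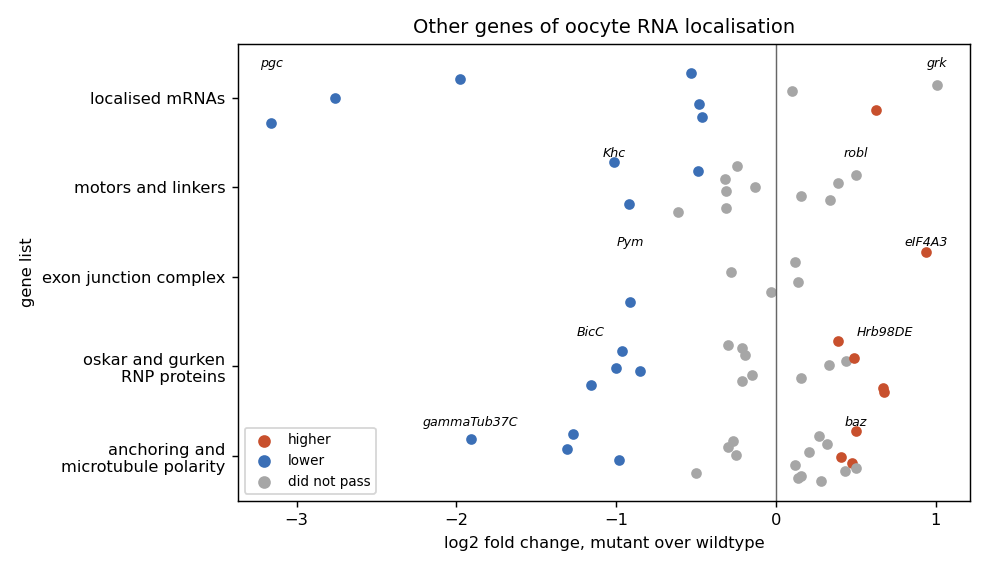
Log2 fold change, mutant over wildtype (horizontal axis), of the 64 other genes in 5 lists (vertical axis); orange points rose, blue points fell and grey points did not pass, and the lowest and highest gene of each list is named. The localised mRNAs lie mostly to the left, from pgc at -3.16 to grk at 1.01, and the other lists spread to both sides of 0.

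**Figure D5:**
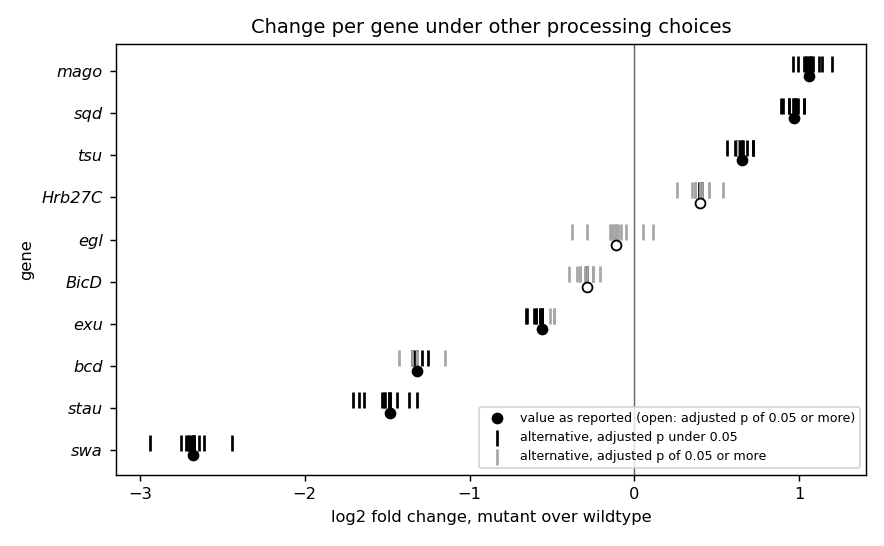
Log2 fold change, mutant over wildtype, of each of the 10 genes as reported (circles, open where the adjusted p was 0.05 or more) and under each of the alternative treatments of the data (ticks, grey where the adjusted p was 0.05 or more). The values of swa, stau, sqd and mago are called throughout, and the ticks of egl lie on both sides of 0.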

How the data were processed

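Per the file headers, the authors deposited 1 table per library, with counts for each annotated transcript of reads 25 to 100 nt long, placed 12 nt in from their 5′ end, with no region masked. The deposited signal is the count per nucleotide and the deposited RPKM scales it by the header's total, as checked in each table. Footprints of 28 to 34 nt were selected, per the labels' protocols. TopHat2 2.1.2, Bowtie 1.0.0, bedtools 2.26.0, SAMtools 0.1.19, DESeq2 and build BDGP6 are named in the submitters' processing notes.

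Transcripts were tied to genes of a RefSeq table of the same release by coordinates (34558 of 34729, the remainder holding 0.249% to 0.419% of counts), and the transcript with the highest mean count stood for a gene. Counts were tested with edgeR 4.0.16 in R 4.3.3: filterByExpr, TMM, quasi-likelihood with genotype as the only term, Benjamini-Hochberg over 7789 genes. CPM uses the TMM-scaled library sizes. An SE is the log2 fold change over the square root of F, with 2 residual and 5.52 prior degrees of freedom. An exact test of 2 against 2 libraries cannot go below p = 0.333. No label names separate animals, so the spread may be technical. Reads carry no molecular identifiers. Transfer RNA genes took 54.8% to 63.9% of the gene counts. Alternatives were RLE and total-count scaling, coding genes only, other filters, DESeq2 1.42.0, a replicate block, the longest transcript, thinning, and each library left out. In simulated counts on 7684 genes, 65.7% of 99 changes of 1 and 95.9% of 97 changes of 2 on the log2 scale were recovered. The simulated spread followed abundance alone and few genes were changed, whereas 41.4% of genes were called in the data. These shares therefore need not hold for the data.

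The members, lists and tests were chosen with earlier results of these data known. Of the lists, the called genes named are the 3 of smallest p in each direction (fewer where fewer passed), with 10 CPM or more on average, and for the 2 members with the largest change the 3 closest genes. One marker symbol, dys, was not matched and not used.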

Additional observations from a re-analysis of the deposited data

How the results depend on the processing

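The values of swa, stau, sqd and mago kept direction and call in all 13 alternatives, and RpS5b did too. With DESeq2, bcd had a log2 fold change of -1.35 and tsu 0.62, neither called. Scaling by total counts left exu at -0.51, not called. With protein-coding genes only, Hrb27C was called at 0.39. Under a fit with the replicate number as a block, BicD (-0.29, adjusted p = 0.044) and Hrb27C (0.41, adjusted p = 0.0434) were called, so that 5 members were lower and 4 higher. The shared numbers are not said to mark a common batch, and deviations of same-numbered libraries correlated at 0.265 over genes. With 1 library left out, where the lone library of a group is assumed to vary like the other group, bcd ran from -1.43 to -1.15 and was never called, exu from -0.66 to -0.49, egl from -0.38 to 0.11, turning sign without wildtype replicate 1 (0.05) or mutant replicate 2 (0.11), and the median of the members from -0.367 to -0.071. Members called lower then numbered 2 to 3. The genes of the pathway lists that rose numbered 3 to 6 with 1 library left out, 3 with DESeq2 and 5 after thinning. Over all genes, 1597 were higher and 1626 lower, 847 higher with DESeq2 and 1034 to 1415 with 1 library left out. Of 21 named list genes, 12 kept direction and call in all alternatives, and 9 lost the call without at least 1 library. The fold change of vas, 0.01, turned to -0.02 with RLE, 0 with coding genes only, -0.02 with DESeq2, -0.07 after thinning, and ran from -0.07 to 0.07 with 1 library left out, below 0 without replicate 2 of either group (-0.03 without the wildtype one, -0.07 without the mutant one). The cause was not tested. The filter of 10 CPM in 2 libraries and thinning left bcd untested. Depth limits bcd, with 22 counts per group, and grk.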
